A study of Mus musculus with 24 samples.

Results

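The genes of 10 serotonin receptors were followed in the medial prefrontal cortex (mPFC) of mice given an antidepressant, a gut bacterium, both or neither. They were *Htr1a*, *Htr1b*, *Htr1f*, *Htr2a*, *Htr2c*, *Htr3a*, *Htr4*, *Htr5a*, *Htr6* and *Htr7*, taken by symbol from the 15456 genes of the table of normalized counts. All 10 had a mean of at least 10 normalized counts and were among the 14974 genes tested. The mice were BALB/C, in postnatal week 11, and there were 6 in each of 4 groups. Control mice, labelled as not treated, received PBS according to the methods. The duloxetine group was injected daily with duloxetine, which blocks the reuptake of serotonin and norepinephrine. The *R. flavefaciens* group received *Ruminococcus flavefaciens*, an anaerobic bacterium of the gut, by gavage, and the last group received both. RNA came from tissue punched out of frontal cortex slices, 1 library per mouse.

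Serotonin reaches the cortex through axons of neurons that lie in the raphe nuclei of the brainstem, and cortical cells respond through several receptor families. *Htr1a*, *Htr1b*, *Htr1f* and *Htr5a* encode receptors coupled to Gi/o proteins, which lower cAMP and open potassium channels. *Htr2a* and *Htr2c* encode receptors coupled to Gq and phospholipase C. *Htr4*, *Htr6* and *Htr7* encode receptors coupled to Gs, which raises cAMP, and *Htr3a* encodes a subunit of a cation channel opened directly by serotonin. Comparing the 4 groups asks whether drug, bacterium or their combination altered the amounts of these transcripts. In RNA from whole tissue, fewer cells of a type and less RNA per cell cannot be told apart.

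Each value is a gene count that the authors scaled by the size factor of its mouse. The reads recovered from them ranged from 12811413 to 15607343 per mouse, and a receptor was represented by between 7 reads, for *Htr4* in mouse 7_2, and 1268 reads, for *Htr2a* in mouse 12_4. Median depth was 13591497 reads in control, 14536037 in duloxetine, 13943370 in *R. flavefaciens* and 14621656 in mice given both. Duloxetine libraries were deeper than control libraries by an exact permutation test (two-sided p = 0.00433, 0.0108 after adjustment over 5 comparisons), and so were libraries of mice given both (p = 0.00433). Markers of cortical excitatory neurons were all in the table, and the most abundant, *Slc17a7*, a vesicular glutamate transporter, lay between 21844 and 27335 normalized counts in every mouse. None of the 3 markers of serotonergic cell bodies (*Tph2*, *Slc6a4*, *Fev*) was in the table. One *R. flavefaciens* mouse, 9_3, stood apart, with the lowest slope of its deviations on transcript length (-0.36 log2 units per 10-fold length) and the largest root mean square deviation (0.35) of the 24. That slope averaged 0.06 in control, 0.04 in duloxetine, -0.10 in *R. flavefaciens* and -0.01 in mice given both. Another *R. flavefaciens* mouse, 8_4, had the highest values of markers of neighbouring structures, with 657 normalized counts of the choroid plexus gene *Ttr* (at most 68.6 in the others) and 393 of the striatal gene *Adora2a* (at most 155 in the others). Its summed striatal markers were 6292 normalized counts, followed by 4057 in mouse 11_4, which received both treatments, and at most 2830 in the remaining mice.

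*Htr2a*, best known as the receptor through which psychedelic drugs act, was the most abundant of the receptor transcripts per length. Its level was 154 ± 34.5 normalized counts per kb of exon (SD, n = 24), and it ranked first in all 24 mice. The Gi/o-coupled *Htr5a* followed with 70.1 ± 6.82 per kb, then *Htr1a* with 64.0 ± 7.19, *Htr1b* with 61.9 ± 9.86 and *Htr6* with 53.2 ± 7.21. Neighbours within this group of receptors did not differ beyond their spread, and *Htr5a* held its place in 12 of 24 mice and *Htr1a* in 6. *Htr2c* reached 40.5 ± 6.86 per kb and *Htr3a* 34.1 ± 5.09, which again did not differ beyond the spread. *Htr7* stood at 27.1 ± 4.53 per kb and *Htr1f* at 19.2 ± 4.18. *Htr4* ranked last in all 24 mice, with 4.65 ± 1.63 per kb. Among all tested genes, these mean levels lay between percentile 5.60 for *Htr4* and percentile 72.1 for *Htr2a*. The place of *Htr2c* depends on the length chosen, since its 7 annotated transcripts together cover 9328 exonic bases while their median length is 3057. Per kb of median transcript length it came second, with 124 ± 20.9.

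**Figure D1:**
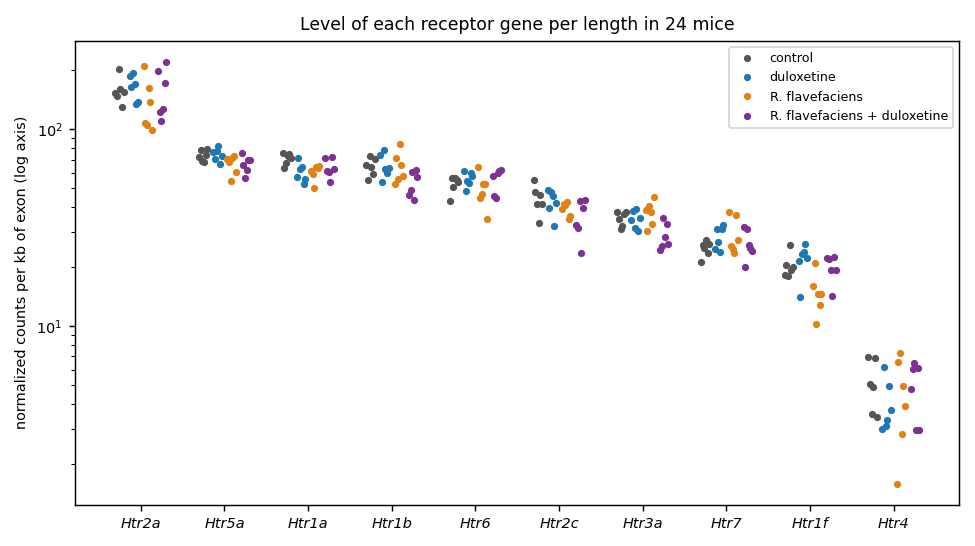
Normalized counts per kb of exon (log axis) of each receptor gene, where each point is 1 mouse and colours mark the 4 groups. *Htr2a* lies above and *Htr4* below every other receptor in each of the 24 mice.

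Summed by coupling, the 4 Gi/o-coupled receptors held 40.8% ± 2.73 of the receptor signal per kb (SD, n = 24). The 2 Gq-coupled receptors held 36.5% ± 3.68, the 3 Gs-coupled receptors 16.2% ± 1.79 and *Htr3a* 6.52% ± 1.27. The order of the first pair turned per kb of median transcript length, where Gq-coupled receptors held 40.7% ± 3.19 and Gi/o-coupled receptors 37.1% ± 2.26. The sum over all receptors was 548 ± 18.5 per kb in control, 552 ± 38.6 in duloxetine, 502 ± 61.9 in *R. flavefaciens* and 512 ± 66.3 in mice given both (SD, n = 6). The SD was larger in the groups that received the bacterium than in control, and the means of all groups lay closer together than that SD.

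No receptor passed the threshold (adjusted p of 0.05, limma) in any of the 8 comparisons made, and neither DESeq2 nor edgeR on the recovered reads called one. Among all tested genes limma called 0 for duloxetine against control (0%), 4 for *R. flavefaciens* against control (0.0267%), 15 for both treatments against control (0.1%), 0 for both against duloxetine (0%) and 334 for both against *R. flavefaciens* (2.23%). It called 0 for the interaction (0%), 154 for duloxetine averaged over the bacterium (1.03%) and 4 for *R. flavefaciens* averaged over duloxetine (0.0267%). At an unadjusted p under 0.05, 1 receptor differed between duloxetine and control, where 3.83% of all tested genes did, and 2 between *R. flavefaciens* and control (19.6% of all genes). The count was 3 receptors for both treatments against control (16.8%), 4 against duloxetine (5.90%) and 3 against *R. flavefaciens* (19.7%). It was 2 for the interaction (7.53%), 2 for duloxetine averaged over the bacterium (14.9%) and 3 for *R. flavefaciens* averaged over duloxetine (18.1%). Groups did not overlap for 0 of the 10 receptors in each comparison of single groups, against 0.334%, 1.62%, 2.04%, 0.254% and 1.44% of all tested genes in the order above.

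Most estimates for the bacterium-treated groups lay below control, though none passed the test. The log2 difference was negative for 8 of 10 receptors after *R. flavefaciens*, with a median of -0.15, and for 8 of 10 after both treatments, with a median of -0.12. After duloxetine it was negative for 4 of 10, with a median of 0.01. The median over all tested genes was 0.00 in each of these comparisons. These comparisons share the control mice. Without mouse 12_2, which had the lowest average receptor level, the median for both treatments against control was -0.043, and without mouse 9_3 that for *R. flavefaciens* against control was -0.13. After removal of the trend on transcript length the latter median was -0.11. Across all tested genes, which are not independent, the log2 difference between *R. flavefaciens* and control had a Spearman correlation of -0.30 with transcript length.

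**Figure D2:**
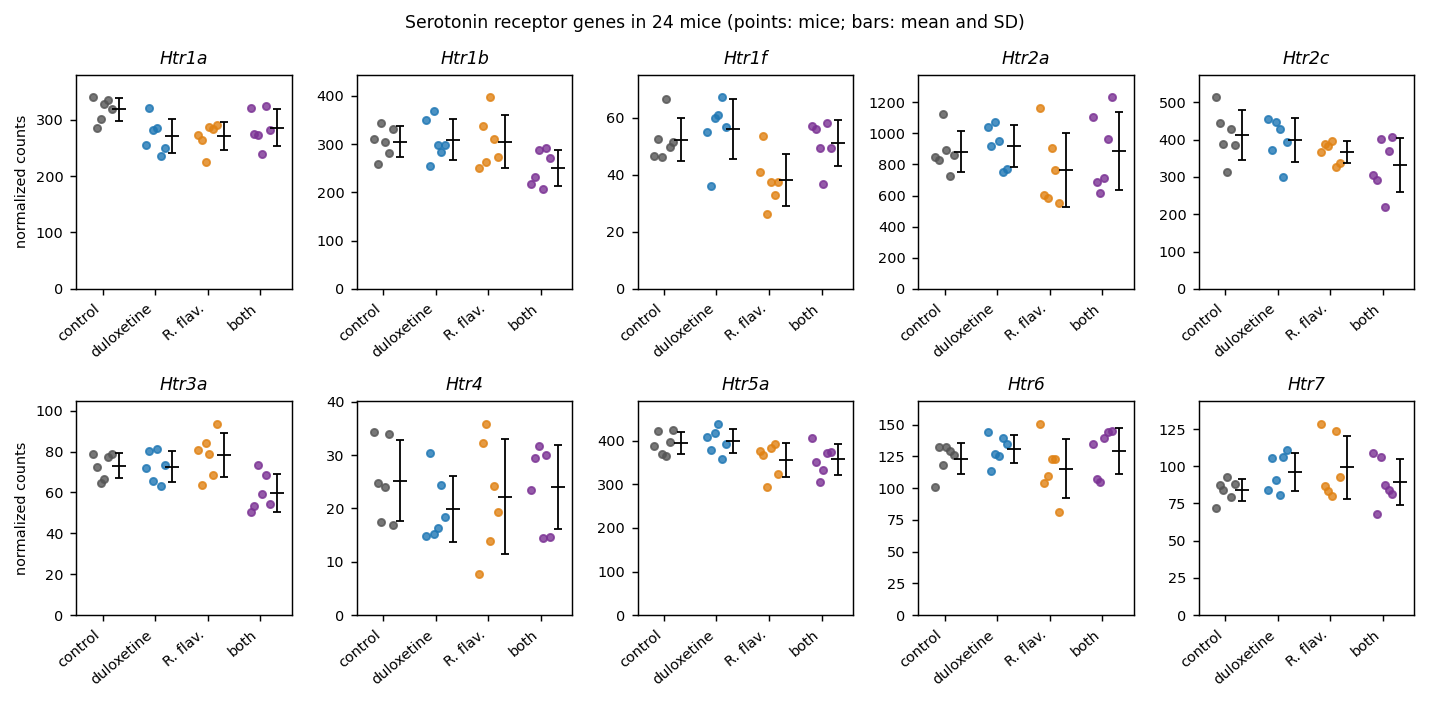
Normalized counts of each receptor gene in the 24 mice, by group, with the mean and SD at the right of each group (n = 6). The groups overlap for every receptor, and the lowest levels of *Htr3a* and *Htr1b* were found in mice given both treatments.

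Of the Gi/o-coupled receptors, *Htr1a*, whose product is both the autoreceptor of raphe neurons and a receptor on cortical pyramidal cells, was highest in control mice. It lay on chromosome 13 (chr13:105443639-105448122, plus strand). Control mice had 285, 324 and 340 normalized counts (lowest, median and highest of 6), duloxetine mice 237, 269 and 320, *R. flavefaciens* mice 226, 279 and 290, and mice given both 240, 279 and 325. In control, 5 of the 6 mice exceeded every *R. flavefaciens* mouse, while the lowest control mouse lay inside each treated group. The log2 difference from control was -0.23 ± 0.08 (SE) after duloxetine (adjusted p = 1.00, limma) and -0.23 ± 0.08 after *R. flavefaciens* (adjusted p = 0.121, limma). The interaction was 0.31 ± 0.11 (adjusted p = 0.639). Without mouse 8_4, the lowest of its group, the difference after *R. flavefaciens* was -0.18, and after removal of the trend on transcript length it was -0.16 (adjusted p = 0.384), with an unadjusted p above 0.05.

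*Htr1b*, a receptor of axon terminals that curbs transmitter release (chr9:81628291-81633828, minus strand), had a similar median in 3 groups. These were 308 in control (259 to 344), 298 in duloxetine (255 to 368) and 292 in *R. flavefaciens* (249 to 396). In mice given both it was 252, with a range of 206 to 292. Mice given both thus reached lower than any other group, yet their upper values overlapped all of them. The log2 difference was -0.29 ± 0.11 from control (adjusted p = 0.202, limma), -0.30 ± 0.11 from duloxetine (adjusted p = 0.816) and -0.27 ± 0.11 from *R. flavefaciens* (adjusted p = 0.169).

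*Htr1f*, whose product is the target of a class of migraine drugs (chr16:64924729-65105784, minus strand), was lowest in *R. flavefaciens* mice. Control mice had 46.3, 50.7 and 66.8 normalized counts (lowest, median, highest), duloxetine mice 36.3, 58.5 and 67.2, *R. flavefaciens* mice 26.4, 37.6 and 53.7, and mice given both 36.8, 52.8 and 58.1. All but 1 of the *R. flavefaciens* mice lay below the lowest control mouse. That exception was mouse 8_3, the highest of its group. The log2 difference between *R. flavefaciens* and control was -0.46 ± 0.16 (adjusted p = 0.11, limma), and without mouse 8_3 it was -0.57 with an adjusted p of 0.0443. Without mouse 8_4, the lowest of all 24, it was -0.37 with an adjusted p of 0.224. Mice given both were higher than *R. flavefaciens* mice by 0.43 ± 0.16 (adjusted p = 0.131, limma). Averaged over duloxetine the bacterium gave -0.29 (adjusted p = 0.168), and averaged over the bacterium duloxetine gave 0.26 (adjusted p = 0.265). The summed deep-layer markers, all 8 of which were in the table, were 7303 ± 372 normalized counts in control and 7075 ± 782.5 in duloxetine (SD, n = 6). They were 6197 ± 844 in *R. flavefaciens* and 6437 ± 553 in mice given both. Their most abundant gene was *Bcl11b*, with a mean of 1635, and none was at 0 in any mouse. Their part in the result was not tested.

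*Htr5a*, a Gi/o-coupled receptor found mainly in the brain (chr5:27842149-27855088, plus strand), varied least of the receptors, with a coefficient of variation of 9.72% over 24 mice. Medians were 393 in control (365 to 424), 401 in duloxetine (359 to 439), 372 in *R. flavefaciens* (294 to 393) and 363 in mice given both (305 to 407). The 2 groups without bacterium were close to each other and above the other two, with overlapping ranges. Averaged over duloxetine, the bacterium gave a log2 difference of -0.16 ± 0.05 (adjusted p = 0.129, limma), and of -0.10 (adjusted p = 0.368) after removal of the trend on transcript length. Between mice given both and duloxetine mice the log2 difference was also -0.16 ± 0.07 (adjusted p = 0.816).

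Among the Gq-coupled receptors, *Htr2a* (chr14:74640840-74709494, plus strand) spread widely within groups. Control mice had 728, 856 and 1126 normalized counts (lowest, median, highest), duloxetine mice 749.8, 935 and 1076, *R. flavefaciens* mice 555, 685 and 1166, and mice given both 615, 838 and 1231. The SD was 132 in control and 134 in duloxetine but 238 in *R. flavefaciens* and 251 in mice given both. The log2 difference between *R. flavefaciens* and control was -0.25, with a 95% interval of -0.59 to 0.10 (adjusted p = 0.429, limma), so differences within that interval could not be resolved among these mice.

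*Htr2c*, whose transcript is edited in the brain and is also abundant in the choroid plexus (chrX:146962513-147197277, plus strand), had medians of 409 in control (312 to 513), 411 in duloxetine (299 to 455), 375 in *R. flavefaciens* (327 to 395) and 338 in mice given both (219 to 407). The groups overlapped throughout, and the lowest value came from mouse 12_2. Mice given both differed from control by -0.33 ± 0.13 on the log2 scale (adjusted p = 0.211, limma) and from duloxetine by -0.28 ± 0.13 (adjusted p = 0.816). Without mouse 12_2 these differences were -0.21 (adjusted p = 0.452, limma) and -0.17 (adjusted p = 0.990). Averaged over duloxetine, the bacterium gave -0.22 (adjusted p = 0.197). Of 8 choroid plexus markers 3 were in the table, and their sum was 51.9 ± 10.1 in control, 68.3 ± 42.1 in duloxetine, 191 ± 296 in *R. flavefaciens* and 77.9 ± 41.5 in mice given both. Mouse 8_4 alone had 791, and without it the mean of the *R. flavefaciens* group was 70.5 ± 34.2 (SD, n = 5). *Ttr*, a transport protein and the defining marker of that tissue, did not exceed 3.08 in any control mouse. Their part in the result was not tested.

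*Htr3a* (chr9:48899213-48911099, minus strand), which marks a class of cortical interneurons born in the caudal ganglionic eminence (CGE), gave the smallest p of all receptors. Control mice had 64.8, 74.9 and 78.9 normalized counts (lowest, median, highest), duloxetine mice 63.3, 72.6 and 81.5, *R. flavefaciens* mice 63.5, 79.9 and 93.6, and mice given both 50.6, 56.7 and 73.3. Of the mice given both, 4 of 6 lay below every mouse of the other groups, and the remaining ones lay inside the range of each group. Against *R. flavefaciens* the log2 difference was -0.38 ± 0.11 (95% interval -0.61 to -0.16, adjusted p = 0.0576, limma), against control -0.29 ± 0.11 (adjusted p = 0.192) and against duloxetine -0.28 ± 0.11 (adjusted p = 0.816). The first of these was the receptor difference nearest to the threshold. It passed under quantile normalization, with a block for the number that opens the label of each mouse, after removal of a trend on transcript length, without mouse 8_3 and without mouse 11_4, the highest of the mice given both and the one with the second highest striatal markers, with adjusted p between 0.0345 and 0.0395. Without mouse 9_3, the highest of its group, it was -0.33 with an adjusted p of 0.126. Over all alternatives to the main limma fit, the adjusted p of this difference was at most 0.211. The interaction was -0.37 (adjusted p = 0.639), and duloxetine averaged over the bacterium gave -0.20 (adjusted p = 0.216).

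Other markers of CGE-type interneurons were given beside *Htr3a*. All 7 were in the table, and their sum was 4901 ± 268 in control, 4688 ± 422 in duloxetine, 4676 ± 687 in *R. flavefaciens* and 4605 ± 514 in mice given both. The most abundant was *Lamp5*, with a mean of 1997, and none was at 0. For both treatments against *R. flavefaciens*, the log2 difference was positive for 3 of the 7 and negative for 4, and none passed the test. The smallest p belonged to *Adarb2*, an RNA-binding protein of the editing enzyme family, with 349 ± 42.9 in *R. flavefaciens* and 388 ± 14.9 in mice given both (log2 difference 0.16, adjusted p = 0.213, limma). *Vip*, a neuropeptide of such interneurons, had 470 ± 64.7 and 413 ± 22.3 in these groups (-0.18, adjusted p = 0.217), and *Prox1*, a transcription factor, 188 ± 59.4 and 202 ± 47.8 (0.13, adjusted p = 0.721). *Reln*, which encodes the secreted protein reelin, had 1516 ± 73.1 in control, 1342 ± 120 in duloxetine, 1182 ± 129 in *R. flavefaciens* and 1225 ± 149.5 in mice given both, with a log2 difference of -0.37 between *R. flavefaciens* and control (adjusted p = 0.0687, limma). In that comparison 3 of the 7 markers were above and 4 below 0, with a median of -0.05 and none past the threshold. The part of these cells in the *Htr3a* values was not tested.

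The Gs-coupled receptors had no difference at an unadjusted p under 0.05. *Htr4* (chr18:62324204-62467802, plus strand) had medians of 24.4 in control (16.8 to 34.3), 17.3 in duloxetine (14.8 to 30.4), 21.8 in *R. flavefaciens* (7.76 to 35.9) and 26.5 in mice given both (14.5 to 31.8). Its intervals were the widest of the receptors, from -0.92 to 0.28 for duloxetine against control, and the cause of their width was not tested. *Htr6* (chr4:139061108-139075570, minus strand) had medians of 128 in control (100.8 to 133), 131 in duloxetine (114 to 144), 116 in *R. flavefaciens* (81.4 to 151) and 137 in mice given both (105 to 145). *Htr7* (chr19:35958734-36057507, minus strand) had medians of 85.9 in control (71.7 to 92.9), 98.2 in duloxetine (80.5 to 111), 89.7 in *R. flavefaciens* (79.9 to 129) and 85.7 in mice given both (67.9 to 109). Their ranges overlapped in every pair of groups. For *R. flavefaciens* against control the 95% interval was -0.35 to 0.13 for *Htr6* and -0.05 to 0.48 for *Htr7*.

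**Figure D3:**
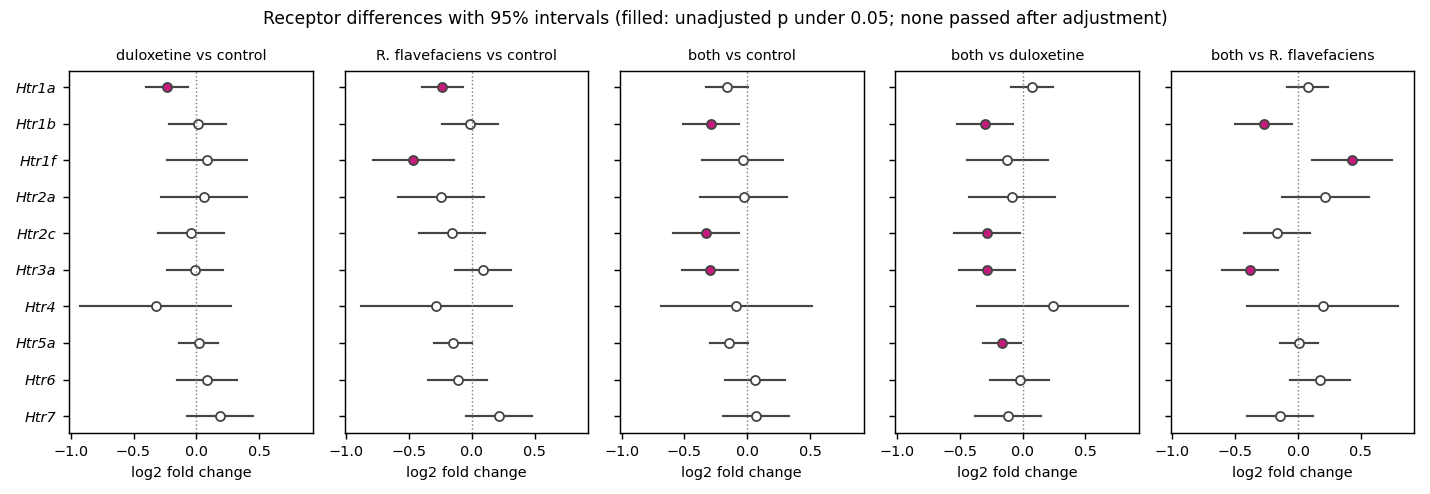
Log2 fold change of each receptor gene (points) with its 95% interval (lines) in the 5 comparisons of single groups, from limma with n = 6 mice per group. Filled points mark an unadjusted p under 0.05, such as *Htr3a* in mice given both against *R. flavefaciens* (-0.38), and none passed after adjustment.

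Across mice of the same group, the receptors varied along different lines. Correlations were taken over 24 mice on log2 values with group means removed, and these points share library, depth and the piece of tissue. Over the 45 pairs of receptors the median r was 0.08, and 28 were positive. *Htr2a* went with *Htr6* (r = 0.61) and *Htr5a* (r = 0.60), and against *Htr4* (r = -0.65). *Htr4* also went against *Htr6* (r = -0.53). The other pairs lay between -0.5 and 0.5.

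*Htr2a* and *Htr6*, the pair with the highest r, are shown with the bases before their start sites, from RefSeq on GRCm38.p6. Capitals mark a GC box, GGGCGG on either strand, a motif bound by Sp1-type factors, and overlapping matches were counted. The *Htr2a* stretch is chr14:74640624-74640839 on the plus strand, and the *Htr6* stretch is chr4:139075571-139075820 on the minus strand.
Htr2a: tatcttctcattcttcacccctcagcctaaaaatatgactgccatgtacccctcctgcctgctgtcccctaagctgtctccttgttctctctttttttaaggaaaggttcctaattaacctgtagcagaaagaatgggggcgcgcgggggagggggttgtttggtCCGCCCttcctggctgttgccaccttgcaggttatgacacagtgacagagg
Htr6: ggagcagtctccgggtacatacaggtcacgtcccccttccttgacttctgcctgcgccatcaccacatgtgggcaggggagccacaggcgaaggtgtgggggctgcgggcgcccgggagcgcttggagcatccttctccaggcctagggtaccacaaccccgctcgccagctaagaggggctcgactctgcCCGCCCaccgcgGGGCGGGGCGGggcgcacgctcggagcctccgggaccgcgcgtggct
*Htr2a* held 1 GC box and *Htr6* held 3. In the 250 bases before the start, 3 of the 8 receptors matched in the table (*Htr1a*, *Htr2a*, *Htr6*) had a GC box, as did 32.7% of all 32851 promoters. GC content of these windows ran from 49.2% for *Htr1f* to 82.0% for *Htr7*, against a median of 52.4%. For *Htr1a*, *Htr2a* and *Htr7* the window reached into the annotated gene, with 196, 216 and 103 of its 250 bases before it. The *Htr2a* stretch above shows only those 216 bases. Neither the TATA box (TATAAA, 12.4% of all promoters) nor the cAMP response element (TGACGTCA, 1.55%) was found in the 8 windows.

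The genes most like *Htr2a* across the 24 mice were *Rgs7*, a regulator of G protein signalling (r = 0.94), and *Cds1*, an enzyme of phosphoinositide synthesis (r = 0.93). *Htr5a* was most like *Syngr1*, a protein of synaptic vesicles (r = 0.91), *Spock1* (r = 0.90) and *Dkk3* (r = 0.89). For *Htr2c* these genes were *Tcerg1l* (r = 0.86), *Ets2* (r = 0.84) and *Ptk2b* (r = 0.81), and for *Htr4* they were *Tmem255a* (r = 0.86), *Baiap3* (r = 0.81) and the neurotrophin gene *Ntf3* (r = 0.78). *Htr1b* was most like *Fndc3a* (r = 0.83), *Ubxn2b* (r = 0.81) and *Ero1l* (r = 0.79), and *Htr6* most like *Gpc6* (r = 0.80), *Calhm2* (r = 0.78) and *Gm26507* (r = 0.78). For *Htr1a* they were *Armcx2* (r = 0.77), *Necap1* and *Acvr1b* (r = 0.76 each). For *Htr3a* they were *Tmem101* (r = 0.75), *Evc2* (r = 0.74) and *Zfp579* (r = 0.73). The highest r was lowest for *Htr7*, with *Alg1* (0.74), *Zfp764* (0.73) and *Cebpzos* (0.71), and for *Htr1f*, with *H60b* (0.72), *Phtf1os* (0.70) and *Cd99l2* (0.68). These genes were picked as the highest of all tested genes, so the size of r is a description.

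**Figure D4:**
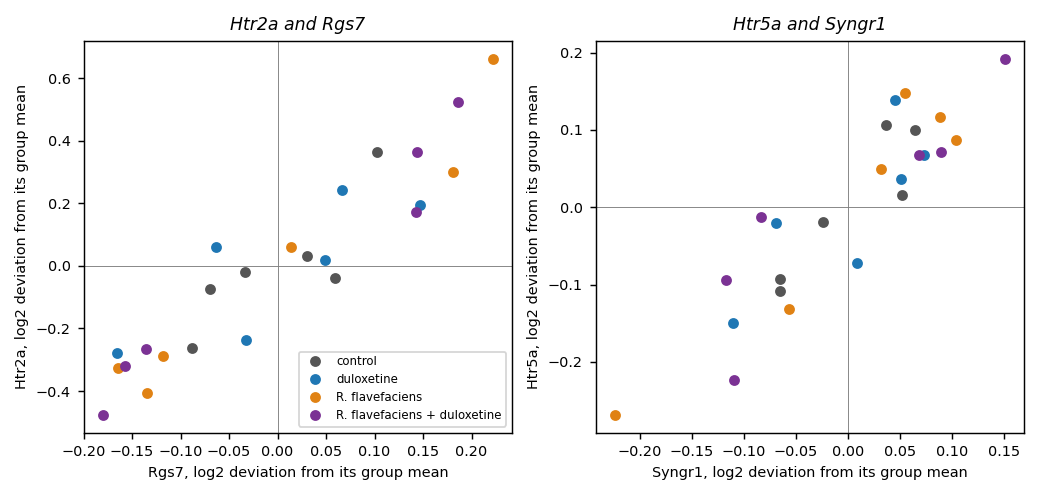
Log2 deviations of *Htr2a* against *Rgs7* (left) and of *Htr5a* against *Syngr1* (right) from their group means, where each point is 1 of 24 mice and colours mark groups. Points of all 4 groups lie along 1 diagonal, with r of 0.94 and 0.91.

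Within groups, the correlation of *Htr2a* with cortical markers differed in sign between lists. Its r was 0.90 with the summed CGE-type list, whose most abundant gene *Lamp5* gave 0.91. The other genes of that list gave 0.46 (*Adarb2*), 0.41 (*Reln*), 0.25 (*Vip*), -0.01 (*Ndnf*), -0.45 (*Calb2*) and -0.64 (*Prox1*). It was 0.73 with excitatory neurons and 0.65 with upper cortical layers, but -0.32 with deep layers and -0.55 with interneurons born in the medial ganglionic eminence (MGE). Single genes of both lists differed in sign, from -0.74 (*Ntsr1*) to 0.58 (*Etv1*) among deep-layer markers, and -0.69 (*Sst*), -0.33 (*Sox6*), -0.01 (*Lhx6*) and 0.32 (*Pvalb*) among MGE-type markers. It was -0.82 with oligodendrocytes, cells of the white matter, where each of 6 markers gave between -0.84 and -0.80. The summed oligodendrocyte markers varied widely in every group, with 24810 ± 7985 in control, 28413 ± 13880 in duloxetine, 30156 ± 14720 in *R. flavefaciens* and 29316 ± 16310 in mice given both. *Htr5a* followed the excitatory neuron list most closely (r = 0.87), *Htr2c* went against endothelial markers (r = -0.71) and *Htr1a* against blood markers (r = -0.67). With the summed choroid plexus markers, r was -0.06 for *Htr2c*, 0.65 for *Htr4* and between -0.57 and 0.13 for the other receptors. The blood markers, hemoglobins and *Alas2*, summed to 281 ± 59.0 in control, 372 ± 213 in duloxetine, 479 ± 160 in *R. flavefaciens* and 509 ± 284 in mice given both. MGE-type markers summed to 3129 ± 211 in control, 3215 ± 182 in duloxetine, 3791 ± 350 in *R. flavefaciens* and 3491 ± 400.4 in mice given both. The most abundant of these 4 markers was *Sst*, with a mean of 2171. This neuropeptide gene had a log2 difference of 0.34 between *R. flavefaciens* and control (adjusted p = 0.0727, limma). In that comparison 2 of the 4 markers were above and 2 below 0, and 0 passed the threshold. *Pvalb* had 413 ± 70.8 in control and 562 ± 102 in *R. flavefaciens*. *Lhx6* had 324.3 ± 18.8 and 316.5 ± 23.1 in these groups, and *Sox6* 417.0 ± 22.3 and 406.5 ± 46.9. Microglial markers summed to 3300 ± 166 in control, 3650 ± 327 in duloxetine, 3673 ± 263 in *R. flavefaciens* and 3804 ± 509 in mice given both, and none of the 6 passed the test in any comparison. At an unadjusted p under 0.05, 4 of 6 were higher than control in duloxetine mice (3.83% of all genes in either direction), 3 in *R. flavefaciens* mice (19.6%) and 4 in mice given both (16.8%). Astrocyte markers summed to 12854 ± 679 in control, 13398 ± 1439 in duloxetine, 13989 ± 1103 in *R. flavefaciens* and 14556 ± 2334 in mice given both, with 0, 1 and 3 of 6 higher than control at that p. *Htr3a* had no r beyond 0.33 in size with any of the 13 cell or region lists and gave -0.06 with its own CGE-type list. Single genes of that list gave between -0.15 (*Lamp5*) and 0.41 (*Calb2*), with 0.30 for *Vip* and 0.24 for *Ndnf*, and *Sst* of the MGE-type list gave 0.47. The part of tissue composition in the group differences was not tested.

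**Figure D5:**
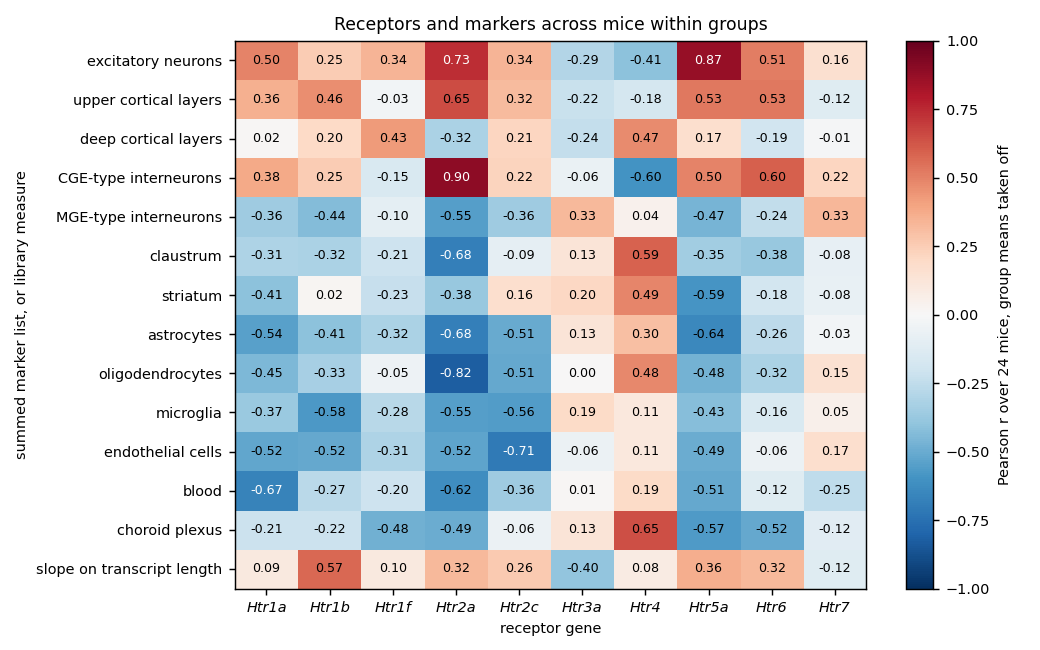
Pearson r over 24 mice, group means taken off, between each receptor gene (columns) and the summed markers of a cell type or region, or the slope on transcript length (rows). Red marks positive and blue negative r, with *Htr2a* at 0.90 for the CGE-type list and -0.82 for oligodendrocytes. Single genes of the CGE-type list gave *Htr2a* an r from -0.64 (*Prox1*) to 0.91 (*Lamp5*, the most abundant).

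The fifth receptor family has a second gene, *Htr5b*, which was in the table, while *Htr1d*, *Htr2b* and *Htr3b* were not found there. *Htr5b* had 70.03 ± 6.43 normalized counts in control, 66.2 ± 23.7 in duloxetine, 72.7 ± 26.1 in *R. flavefaciens* and 50.9 ± 22.7 in mice given both (SD, n = 6). Mice given both differed from control by -0.59 ± 0.26 on the log2 scale (adjusted p = 0.263, limma). From *R. flavefaciens* mice they differed by -0.58 ± 0.26 (adjusted p = 0.225, limma).

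Of 59 genes listed for serotonin handling and receptor signalling, 52 were in the table and tested, and 1 passed the threshold in any of the comparisons. It was *Kcnj9*, a subunit of the potassium channels that Gi/o-coupled receptors open, which fell in mice given both against *R. flavefaciens* (log2 difference -0.17 ± 0.04, adjusted p = 0.0415, limma). In that comparison 2.23% of all tested genes passed, so that 1 of 52 is near the background. It had 2453 ± 137 normalized counts in control, 2354 ± 60.0 in duloxetine, 2535 ± 147 in *R. flavefaciens* and 2259 ± 98.9 in mice given both. The call was lost when any 1 of 9 mice (1_1, 7_2, 8_3, 9_1, 9_2, 10_2, 11_3, 11_4 or 12_2) was left out, with adjusted p from 0.0502 to 0.0987, and with the 2 groups fitted alone (adjusted p = 0.193, limma). At an unadjusted p under 0.05, 12 of the 52 were lower and 3 higher in *R. flavefaciens* against control (19.6% of all tested genes in either direction), and 10 were lower and 2 higher in mice given both against control (16.8%). Duloxetine against control gave 1 lower and 1 higher (3.83%).

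By role, of 10 genes of synthesis, transport and breakdown 6 were in the table. The tryptophan hydroxylases *Tph1* and *Tph2* and the transporters *Slc6a4* and *Slc6a2*, on which duloxetine acts, were not among them. *Slc18a2*, the vesicular monoamine transporter, had 72.6 ± 15.3 in control and 91.1 ± 8.71 in *R. flavefaciens*, with a log2 difference of 0.34 ± 0.11 (adjusted p = 0.102, limma). In the Gi/o list, *Kcnj6*, another channel subunit, had the smallest p for *R. flavefaciens* against control (-0.46 ± 0.16, adjusted p = 0.124). It had 565 ± 29.2 in control and 433 ± 142 in *R. flavefaciens*, and the lowest value of all mice was 200. In the Gq list the smallest p for that comparison belonged to *Plcb4*, a phospholipase C (-0.25 ± 0.08, adjusted p = 0.103). It had 996 ± 38.4 in control and 847 ± 149 in *R. flavefaciens*. Of the 9 genes of that list 5 were lower at an unadjusted p under 0.05, where 19.6% of all tested genes differed in either direction. For both treatments against control 1 of these 9 was lower at that p (16.8% of all genes). The SD was larger in *R. flavefaciens* than in control for every gene of the Gq list except *Gna11*. In the Gs list, the adenylyl cyclase *Adcy3* had the smallest p for mice given both against control (-0.29 ± 0.07, adjusted p = 0.0871), and *Adcy9* for *R. flavefaciens* against control (-0.31 ± 0.12, adjusted p = 0.151). *Adcy9* had 1187 ± 53.3 in control and 988 ± 250 in *R. flavefaciens*, and its lowest value of all mice was 520. For *Kcnj6*, *Plcb4* and *Adcy9*, fits with a mouse left out are not given here. Among receptor partners and RNA editing enzymes, *S100a10*, a protein that carries 5-HT1B receptors to the membrane, had a log2 difference of 0.30 ± 0.10 between *R. flavefaciens* and control (adjusted p = 0.107). *Adar*, an editing enzyme, had the smallest p of that list for mice given both against control (-0.20 ± 0.07, adjusted p = 0.188), where *Slc29a4*, a monoamine carrier (0.26, adjusted p = 0.292), and *Kcnj9* (-0.12, adjusted p = 0.188) stood first in the synthesis and Gi/o lists.

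Leading genes of these lists in the other comparisons did not pass either. For duloxetine against control they were *Slc18a2* (0.22), *Gnai3* (-0.10), *Plcb4* (-0.08), *Adcy3* (-0.17) and *S100a10* (0.20), each with an adjusted p of 1.00 in limma. For both against duloxetine they were the monoamine oxidase *Maob* (-0.07), *Gnai1* (-0.09), the adenylyl cyclase *Adcy8* (-0.27) and the kinase *Cdk5* (0.07), with adjusted p between 0.816 and 0.868. For both against *R. flavefaciens* they were, beside *Kcnj9*, *Slc18a2* (-0.20), *Gna11* (-0.10), *Gnal*, a Gs-type subunit (0.19), and *Grk3*, a receptor kinase (0.15), with adjusted p between 0.141 and 0.305.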

How the data were processed

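Each of the 24 mPFC libraries comes from 1 mouse, and the labels assign 6 mice to each group. According to the methods the authors mapped poly(A) reads to GRCm38.p5. The submitters' processing notes name TopHat2 2.1.0, Bowtie2 2.2.6, DESeq2 1.18.1 and the build mm9, but positions in the table are those of GRCm38. The program and strand setting of counting and the filter on low counts are not given in the sources used here. The deposited signal values are gene counts that the authors divided by 1 size factor per mouse. Of 370875 non-zero values 99.997% were whole multiples of a step per mouse, within a tolerance of 0.0051, which returned the reads.

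Lengths came from GENCODE vM21. All 14974 genes with a mean of at least 10 were tested with limma 3.58.1 (R 4.3.3, trended prior) on log2(value + 1), which understates changes of low genes. All 4 groups entered 1 fit, tests were two-sided, and the Benjamini-Hochberg adjustment was made separately for 8 comparisons. DESeq2 1.42.0 and edgeR 4.0.16 were run on recovered reads. DESeq2 called 1, 488, 217, 1 and 624 genes in the comparisons of single groups in the order of the report, and edgeR 0, 4, 17, 0 and 327. The tests were also run on simulated data with 200 changed genes, and that outcome is not given here. Mice of the same group differed beyond counting error (chi-square per degree of freedom 2.09 to 26.5 over 60 pairs). Since the labels do not say what else mice of a group shared, p-values measure the spread between these mice. Other alternatives were leaving out each mouse, the pseudocount 0.1, a minimum mean of 50 or none, only the groups compared, quantile and 75th percentile scaling, a random block for the first label number, a loess length trend (span 0.3) and an adjusted p under 0.1.

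All receptors were named, with statistics wherever the unadjusted p was under 0.05. From each pathway list the text names genes past the threshold or those of smallest p, and as like genes the 3 of highest r, and a few genes these rules pick are not reported here. Receptors and lists were chosen with earlier results of these data known. Further marker genes and pairs shown were chosen after their values were seen. Python 3.11.15, numpy 2.4.6, pandas 2.3.3, scipy 1.17.1 and matplotlib 3.10.9 were used.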

Additional observations from a re-analysis of the deposited data

Results flagged for a closer look

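In 40 groups of 6 mice (10 receptors in 4 groups), 1 mouse lay far from the others of its group. Control mouse 2_3 had 66.8 normalized counts of *Htr1f*, while the nearest control mouse had 52.6, a gap of 0.691 of the group's range, above the 95% critical value of Dixon's test for 6 samples. About 1 group in 20 is expected to hold such a mouse by chance.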

How the results depend on the processing

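Each group held 6 mice, and the widest intervals of the receptors were those of *Htr4*. For the 20 pairs of receptor and comparison with an unadjusted p under 0.05, 669 alternative values were computed. Of these 663 kept direction and side of the threshold, 0 reversed, and 6 passed the threshold. For both treatments against *R. flavefaciens*, 1 receptor (*Htr3a*) passed under quantile normalization, with the random block for the first label number and with the length trend removed, and 1 at an adjusted p under 0.1, and leaving out each mouse gave 0 to 1. For *R. flavefaciens* against control leaving out each mouse gave 0 to 1 (*Htr1f* without mouse 8_3). The causes were not tested. At a minimum mean of 50, which leaves 8 receptors, the median log2 difference was -0.0692 in place of 0.0397 for both against *R. flavefaciens* and -0.0693 in place of 0.0374 for the interaction. These medians were also negative with the length trend removed (-0.0361 and -0.0112), the first without mouse 7_2 (-0.0165) or 8_4 (-0.0130) and the second without mouse 9_3 (-0.0232). The median for duloxetine averaged over the bacterium (-0.0267) was positive without mouse 8_3 (0.00478), 12_2 (0.00893) or 12_4 (0.00045). The call of *Kcnj9* for both against *R. flavefaciens* was lost without any 1 of 9 mice (adjusted p up to 0.0987) and with only the groups compared (adjusted p = 0.193). The number of receptors called stayed at 0 in the other comparisons under every alternative.

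No paired analysis was possible because the groups share no replicate numbers. Mice with the same first label number had a residual correlation of -0.0451. Each first label number occurs within a single group, so the block cannot separate treatment from what the number stands for. With the block the unadjusted p of *Htr3a* for both against *R. flavefaciens* was 0.00112, against 0.00156 in the main fit (limma).

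Over all genes the count of calls depended on the tool and the mice. For *R. flavefaciens* against control 4 genes became 0 with only the groups compared, 221 with the block, 488 with DESeq2 and 579 at an adjusted p under 0.1. For both against control 15 became 196 with only the groups compared, 217 with DESeq2, 126 at an adjusted p under 0.1, 59 with the block, 38 with the length trend removed, 30 at a minimum mean of 50 and 24 with 75th percentile scaling. For both against *R. flavefaciens* 334 became 0 with only the groups compared, 533 with the block, 624 with DESeq2 and 842 at an adjusted p under 0.1. For duloxetine averaged over the bacterium 154 became 255 with the block, 269 with the length trend removed, 321 with DESeq2 and 374 at an adjusted p under 0.1. For *R. flavefaciens* averaged over duloxetine 4 became 2 with quantile normalization, 441 with DESeq2 and 201 at an adjusted p under 0.1. DESeq2 called 1 in place of 0 for duloxetine against control and for both against duloxetine. Leaving out each mouse gave 0 to 616 for *R. flavefaciens* against control, 5 to 154 for both against control, 0 to 2 for both against duloxetine, 47 to 577 for both against *R. flavefaciens*, 46 to 260 for duloxetine averaged and 1 to 135 for *R. flavefaciens* averaged.

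By median transcript length, an alternative chosen after seeing the data, *Htr2c* moved from place 6 to 2, *Htr1b* from 4 to 3, *Htr5a* from 2 to 4 and *Htr1a* from 3 to 6.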
